A study of Sus scrofa with 27 samples.

Results

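The change in gene expression of pig lungs after 6h of perfusion with Pediatric Dialysis (PD) was followed in 8 of the 27 libraries of the series, namely the 0h and 6h biopsies of the 4 pigs that the labels number 2, 3, 4 and 5. The libraries were chosen by their labels for treatment and time, and each lung was compared with itself. All lungs came from Large White pigs in a donor model without a beating heart, went through cold ischemia and were then ventilated and perfused outside the body, a procedure called ex vivo lung perfusion (EVLP). Every lung, in PD and in the Gold Standard group (GS, 5 other pigs), received Steen solution, an albumin and dextran perfusate, with methylprednisolone, a glucocorticoid, cefuroxime, an antibiotic, and heparin, an anticoagulant. In PD the circuit ran continuously over a pediatric hemodialysis membrane (AVpaed), while in GS part of the Steen solution was exchanged at intervals. The 0h biopsy was taken after cold ischemia and before perfusion, so the effects of rewarming, ventilation, drugs, perfusion and dialysis on a 6h value cannot be told apart within PD. Age and sex of the pigs are not given in the sources used here.

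In a lung that is rewarmed and perfused again after ischemia, resident macrophages, endothelium and epithelium are known to sense injury and to switch on rapidly induced genes through transcription factors such as NF-kB and AP-1. The first products include cytokines and chemokines, the transcription factors that carry the response further, and inhibitors that end it. Glucocorticoids are known to dampen part of this program and to induce genes of their own.

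The 8 libraries held between 17935127 and 21820935 counts on genes. Between 20298 and 22291 genes were detected in a library, and mitochondrially encoded genes took 4.97% to 11.6% of the counts. Defining lung markers were present in all 8 libraries. SFTPC, a surfactant protein of alveolar type 2 cells, ran from 10252 to 68913 CPM, the counts of a gene scaled to the library size after TMM normalisation. AGER of alveolar type 1 cells ran from 310.5 to 1097 CPM, PECAM1 of endothelium from 415 to 729.5 CPM and MARCO of alveolar macrophages from 227 to 670.3 CPM. The 12h library of pig 2, which entered the fit as 1 of the 12 PD libraries, stood apart with 14650700 counts, 18979 genes and a mitochondrial share of 1.65%.

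The 300 bases before the start of 3 genes described below are shown, because IL6 is a known target of NF-kB and the other two are on the lists of cAMP response genes (GPR3) and metallothioneins (MT1A), and the factors of these responses bind short elements with known letters. The sequences are RefSeq's for Sscrofa11.1, written 5′ to 3′ on the strand of the gene, and capitals mark matches to the searched letters. IL6 (ENSSSCG00000020970, plus strand, chr9:91506121-91506420) holds 1 match to the kappaB consensus, GPR3 (ENSSSCG00000003576, plus strand, chr6:84609807-84610106) 1 CRE, 1 AP-1 and 1 metal response element match, and MT1A (ENSSSCG00000023684, plus strand, chr6:18671716-18672015) 3 matches to the metal response element:
IL6: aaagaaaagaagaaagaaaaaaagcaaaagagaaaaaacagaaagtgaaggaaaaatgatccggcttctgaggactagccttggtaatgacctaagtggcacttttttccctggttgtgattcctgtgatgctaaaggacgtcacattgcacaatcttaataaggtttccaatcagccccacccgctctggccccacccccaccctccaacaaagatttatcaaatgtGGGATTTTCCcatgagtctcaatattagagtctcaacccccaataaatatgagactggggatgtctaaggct
GPR3: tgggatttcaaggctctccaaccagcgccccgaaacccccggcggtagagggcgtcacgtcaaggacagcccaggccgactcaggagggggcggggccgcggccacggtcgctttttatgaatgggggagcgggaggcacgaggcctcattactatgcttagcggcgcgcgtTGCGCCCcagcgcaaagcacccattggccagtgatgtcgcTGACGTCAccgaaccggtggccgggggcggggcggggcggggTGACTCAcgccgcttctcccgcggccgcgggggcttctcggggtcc
MT1A: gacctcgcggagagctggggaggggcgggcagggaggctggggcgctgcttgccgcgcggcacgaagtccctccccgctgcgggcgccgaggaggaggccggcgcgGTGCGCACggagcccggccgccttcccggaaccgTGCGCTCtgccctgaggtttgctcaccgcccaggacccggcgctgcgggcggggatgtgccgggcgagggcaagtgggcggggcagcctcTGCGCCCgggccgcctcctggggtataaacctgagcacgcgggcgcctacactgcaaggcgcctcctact
Counted back from the RefSeq start, the IL6 match GGGATTTTCC lies at -72 to -63. The GPR3 matches lie at -128 to -122 (metal response element), -88 to -81 (CRE) and -46 to -40 (AP-1). The gene model of the table starts a little further upstream than RefSeq's for IL6.

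Both strands of the windows of 16288 protein-coding genes were searched, and 21 of the 22 genes called at 6h had a window. The kappaB consensus was found in 16.4% of all windows and in those of 3 called genes, IL6 among them. The AP-1 letters TGANTCA were found in 5.68% of all windows and in those of 2 called genes, GPR3 among them, and the CRE letters TGACGTCA in 2.01% and in that of GPR3. The metal response element, TGCACNC or TGCGCNC, was found in 29.3% of all windows and in those of 9 called genes, and 3 or more matches, as in MT1A, in 1.66%. The letters TTGCATCA of a C/EBP-ATF element, in 0.639% of all windows, and the CArG box, in 1.63%, were in none of the 21 windows. A match is a description of letters and no evidence of binding, and a window without one says nothing of the factor.

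At 6h, 21 genes rose and 1 fell among the 15545 genes tested. A call needed a fold change of 2 or more together with an adjusted p (Benjamini-Hochberg) below 0.05 in the edgeR quasi-likelihood test, in which the pig was a block, and 0.142% of the genes tested were called (0.135% higher, 0.00643% lower). At an unadjusted p under 0.05, 844 genes (5.43%) were higher and 619 (3.98%) lower, 9.41% in all. All 4 pigs were higher at 6h for 1750 genes (11.3%) and lower for 1715 (11%), and the levels at 6h and 0h did not overlap for 944 higher genes (6.07%) and 751 lower genes (4.83%). The median log2 fold change over all genes tested was -0.02.

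The number of calls moved with the test and with the pigs. Each of the 22 genes kept its direction in every alternative in which it was tested. Each had moved the same way in all 4 pigs, so leaving out a pig could hardly reverse it, and the kept direction is no separate support. DESeq2 called 319 genes higher (2.05%) and 109 lower (0.701%), the 22 among them. Without pig 3, pig 4 or pig 5 edgeR called 0 genes. In these fits 551, 634 and 389 genes were higher at an unadjusted p under 0.05 and 478, 303 and 191 lower. The genes tested were 15603, 15641 and 15512. Without pig 2 edgeR called 98, and without the 12h library of pig 2 it called 252, in each case with all 22 among them.

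**Figure D1:**
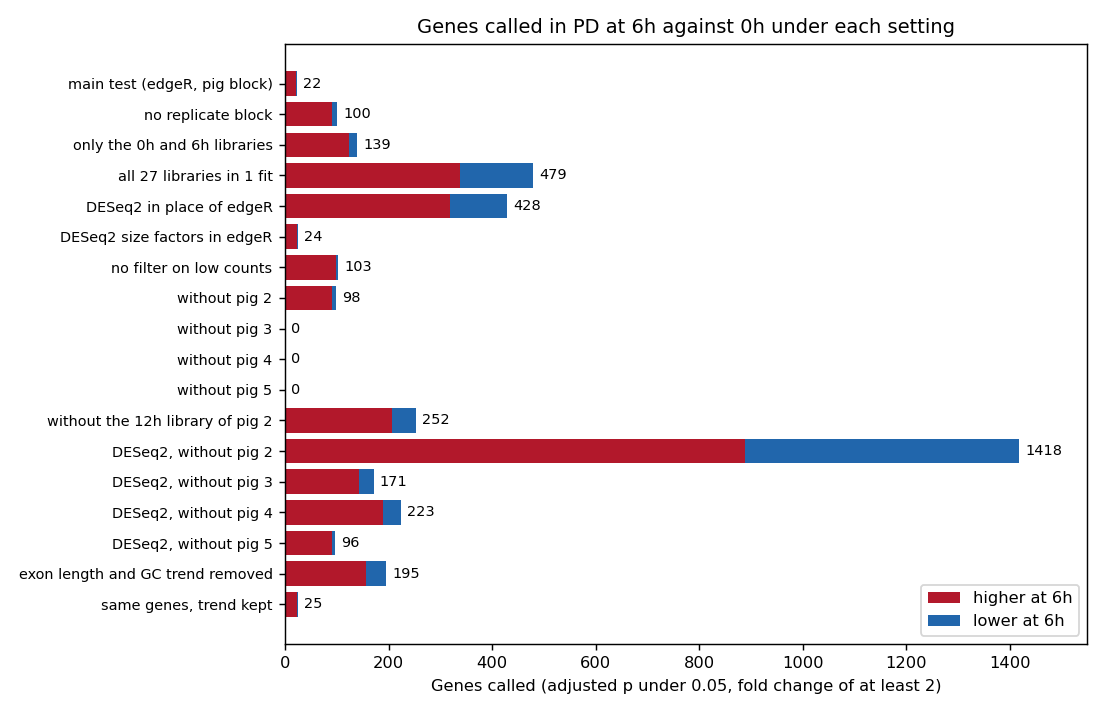
Number of genes called at 6h against 0h in PD (horizontal axis, genes passing the thresholds on adjusted p and fold change) under each setting (vertical axis), split into higher (red) and lower (blue) at 6h. The count runs from 0 without pig 3, 4 or 5 in edgeR to 1418 in DESeq2 without pig 2, and red exceeds blue wherever genes were called.

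Cytokine and chemokine genes were among the called genes. TNF, the cytokine that starts many acute responses, stood at 4.83, 4.00, 5.87 and 2.63 CPM at 0h and at 58.3, 27.4, 36.0 and 42.8 CPM at 6h in pigs 2, 3, 4 and 5. The lowest 6h level was above the highest 0h level, and TNF rose by 3.20 ± 0.42 on the log2 scale (± SE, edgeR adjusted p = 0.0176). IL6, a cytokine of the acute phase, stood at 3.83, 0.818, 2.75 and 1.45 CPM at 0h and 32.8, 21.3, 51.5 and 10.1 CPM at 6h. Every pig was higher at 6h without overlap, and IL6 rose by 3.77 ± 0.46 (edgeR adjusted p = 0.0176).

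CCL4 encodes a chemokine that draws monocytes, T cells and NK cells. It stood at 24.3, 18, 12.7 and 11.7 CPM at 0h and 806, 104, 191 and 212 CPM at 6h, a rise of 3.94 ± 0.51 (edgeR adjusted p = 0.0176), with pig 2 far above the other pigs at 6h. CCL3L1, of the same chemokine family, stood at 5.25, 4.18, 1.64 and 4.03 CPM at 0h and 96.6, 18.6, 47.7 and 50.8 CPM at 6h and rose by 3.69 ± 0.56 (edgeR adjusted p = 0.0332). For both chemokines pig 3 was the lowest at 6h, still above every 0h level. Their close copies in the genome make the split of reads among the members uncertain. The gene model of CCL4 runs from 39478885 to 39557358 on the minus strand of chromosome 12. It encloses that of CCL3L1, at 39491885 to 39493370 on the plus strand, so the 2 genes may not be separate measurements.

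Among 25 cytokine genes tested, 11 had an unadjusted p under 0.05 and a higher level, none a lower one, and the median log2 fold change was 1.19 against -0.02 over all genes tested. IL1A and IL1B, not called by edgeR, encode the alarm cytokines of injured cells and macrophages. IL1A stood at 39.4, 34.6, 13.2 and 9.42 CPM at 0h and 194, 135, 143 and 133 CPM at 6h, without overlap (log2 2.72 ± 0.55, edgeR adjusted p = 0.0827). IL1B stood at 1.51, 2.27, 1.69 and 0.610 CPM at 0h and 21.1, 3.24, 50.1 and 6.10 CPM at 6h (log2 3.31 ± 0.75, edgeR adjusted p = 0.13). The log2 ratios of IL1B were 3.78, 0.51, 4.87 and 3.27, with pig 3 well below the others.

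CSF3, the growth factor of neutrophils, stood at 3.03, 2.86, 13.7 and 3.09 CPM at 0h and 24.8, 29.1, 85.7 and 22.0 CPM at 6h (log2 2.95 ± 0.88, edgeR adjusted p = 0.274). LIF, a cytokine of the IL-6 family, overlapped between the times (log2 2.08 ± 0.62, adjusted p = 0.272), as did the inhibitory cytokine IL10 (log2 1.15 ± 0.58, adjusted p = 0.567) and the neutrophil chemokine CXCL8 (log2 2.01 ± 0.85, adjusted p = 0.499). Pig 3 was lower at 6h for both IL10 and CXCL8. Of 25 chemokine genes tested, 5 were higher and 2 lower at an unadjusted p under 0.05, with a median of 0.10, and the summed chemokine level at 6h ran from 1444 CPM in pig 3 to 9757 CPM in pig 4.

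NF-kB subunits and their feedback inhibitors were described as a list of 19 tested genes. Of these, 7 were higher and 1 lower at an unadjusted p under 0.05, the median was 0.90, and 1, TNFAIP3, was called. TNFAIP3 encodes A20, an enzyme that ends NF-kB signalling. It stood at 61.2, 85.2, 48.4 and 37.2 CPM at 0h and 554, 545, 833 and 476 CPM at 6h and rose by 3.35 ± 0.47 (edgeR adjusted p = 0.0222). NFKBIA, the inhibitor that holds NF-kB in the cytosol, stood at 180.2, 189, 417 and 194 CPM at 0h and 1126, 861, 1332 and 931 CPM at 6h, without overlap, but its adjusted p of 0.0593 lay just outside the threshold (log2 2.16 ± 0.38). NFKBIZ, a nuclear co-activator, gave 2.16 ± 0.51 (adjusted p = 0.145). The summed level of the list was higher in 4 of 4 pigs, at 1142 to 1559 CPM at 0h and 3383 to 7571 CPM at 6h. REL and MAP2K3 are among the genes that the study, with DESeq2, reports as raised in both groups at both times. Here REL gave 1.35 ± 0.38 (edgeR adjusted p = 0.244) and was called higher by DESeq2 (adjusted p = 0.019). MAP2K3 gave 0.67 (edgeR adjusted p = 0.636) and was called in none of the alternatives.

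Transcription factors made up a further set of the called genes. MAFF, a small Maf protein that pairs with stress-responsive factors, stood at 38.1, 27.8, 16.1 and 17.3 CPM at 0h and 230.1, 217, 185 and 196 CPM at 6h, a narrow range at 6h, and rose by 3.14 ± 0.39 (edgeR adjusted p = 0.0176). NFIL3, a repressor that ties cytokine signals to the circadian clock, rose by 3.28 ± 0.43 (adjusted p = 0.0176) from a range of 14.1 to 44.6 CPM at 0h to a range of 117 to 348 CPM at 6h. PRDM1, the repressor also known as Blimp-1, rose by 2.77 ± 0.38 (adjusted p = 0.0204) from a range of 15.1 to 23.2 CPM at 0h to a range of 100.6 to 149 CPM at 6h. Neither gene overlapped between the times.

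Of 22 immediate early transcription factor genes tested, 10 were higher and none lower at an unadjusted p under 0.05, and 1, MAFF, was called. The median of the list was 1.23, but its median per pig ran from 0.36 in pig 4 to 2.48 in pig 5. Its summed level was higher at 6h in 3 of 4 pigs and lower in pig 4, at 2236 CPM at 0h and 1601 CPM at 6h. MYC, a driver of growth genes, lay just outside the threshold with 45.2, 37.5, 12.4 and 32.1 CPM at 0h and 188, 239, 179.9 and 189.8 CPM at 6h (log2 2.69 ± 0.45, edgeR adjusted p = 0.0507). FOSL1, a partner in AP-1, gave 3.05 ± 0.59 (adjusted p = 0.0815). Of 14 KLF factors tested, 5 were higher and 1 lower at an unadjusted p under 0.05, among them KLF10, a factor induced by TGF-beta (2.21 ± 0.46, adjusted p = 0.0904), with a list median of 0.73.

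ID1 was the gene that fell. It encodes an inhibitor of DNA binding, which blocks basic helix-loop-helix factors and is a standard readout of BMP signalling. ID1 stood at 107, 85.7, 32.3 and 64.0 CPM at 0h and 11.5, 9.90, 11.3 and 10.9 CPM at 6h, and it fell by 2.59 on the log2 scale (SE 0.37, edgeR adjusted p = 0.0222). The 4 pigs differed at 0h and lay close together at 6h. Its relative ID3 stood at 313, 219, 135 and 292 CPM at 0h and 95.8, 59.4, 34.3 and 67.2 CPM at 6h, lower in 4 of 4 pigs without overlap, with an adjusted p of 0.053 (log2 -1.92 ± 0.32). BMP2, a ligand of the pathway, had the opposite sign, with 1.74 to 4.87 CPM at 0h and 11.3 to 24.0 CPM at 6h (log2 2.26 ± 0.47, adjusted p = 0.0986). Of 25 BMP and ID genes tested, 2 were higher and 2 lower at an unadjusted p under 0.05, and the median was 0.03.

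DUSP2, RND3, RNF19B and TIPARP were also called higher, and of these DUSP2 is on the list of MAPK feedback genes. DUSP2, a phosphatase of MAP kinases, stood at 19.9, 23.1, 14.7 and 15.5 CPM at 0h and 130.4, 101.0, 137 and 134 CPM at 6h and rose by 2.76 ± 0.43 (edgeR adjusted p = 0.036). RND3, a small GTP-binding protein that loosens actin fibres, stood at 42.8, 44.1, 31.5 and 39.2 CPM at 0h and 361, 282, 219 and 233 CPM at 6h, which was a rise of 2.78 ± 0.37 (adjusted p = 0.0176) that was even across pigs. RNF19B, a ubiquitin ligase, rose by 2.49 ± 0.36 (adjusted p = 0.0222), from a range of 30.1 to 48.6 CPM at 0h to a range of 176 to 302 CPM at 6h. TIPARP, a mono-ADP-ribosyltransferase that restrains the aryl hydrocarbon receptor, rose by 2.56 ± 0.38 (adjusted p = 0.0257).

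Of 19 MAPK phosphatase and feedback genes tested, 7 were higher and none lower at an unadjusted p under 0.05, with a median of 0.90. DUSP5 and MAP3K8, a phosphatase and a kinase of the ERK route, gave 2.57 ± 0.47 (adjusted p = 0.0667) and 2.28 ± 0.42 (adjusted p = 0.0697). Of 21 genes of IL-6 receptors, JAK-STAT and SOCS proteins, 9 were higher and none lower at an unadjusted p under 0.05, with a median of 1.10. edgeR called none of them and DESeq2 4, all higher, against 2.05% of all genes tested that DESeq2 called higher. SOCS3, which shuts off IL-6 receptor signalling, stood at 56.6, 20.2, 18.7 and 14.9 CPM at 0h and 139, 306, 204 and 229 CPM at 6h, without overlap (log2 3.21 ± 0.54, edgeR adjusted p = 0.0548). Pig 2 had the highest SOCS3 level at 0h and the lowest at 6h. IRF1, an interferon regulatory factor, ran from 115 to 163 CPM at 0h to 339.8 to 1224 CPM at 6h (log2 1.99 ± 0.40, adjusted p = 0.0827), and of 13 genes of its family 2 were higher at an unadjusted p under 0.05.

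Stress genes included the call with the smallest p. GADD45A, a growth arrest and DNA damage gene, stood at 31.8, 24.1, 25 and 22.5 CPM at 0h and 349, 206, 274 and 192 CPM at 6h. The 4 pigs moved alike, with log2 ratios of 3.45, 3.09, 3.45 and 3.10, and GADD45A rose by 3.28 ± 0.33 (edgeR adjusted p = 0.0102). CDKN1A, the p21 inhibitor of the cell cycle, gave 1.94 ± 0.38 (adjusted p = 0.0815), and GADD45B 1.72 ± 0.50 (adjusted p = 0.264). Of 17 growth arrest and p53 genes tested, 4 were higher and none lower at an unadjusted p under 0.05, with a median of 0.15. In all 4 pigs, 5 of these genes were higher and 2 lower, against 11.3% and 11% of all genes tested, and the 2 lower lie near that share.

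TRIB3, a pseudokinase induced by the amino acid response factor ATF4, stood at 10.4, 5.55, 7.13 and 4.88 CPM at 0h and 55.1, 34.0, 59.1 and 36.5 CPM at 6h and rose by 2.73 ± 0.35 (edgeR adjusted p = 0.0176). Of 29 ATF4 amino acid response genes tested, 10 were higher and none lower at an unadjusted p under 0.05, and the median was 0.48. SESN2, a stress sensor upstream of mTORC1, gave 1.36 ± 0.38 (adjusted p = 0.249). SLC7A1, a carrier of cationic amino acids, gave 1.67 ± 0.47 (adjusted p = 0.252), with 45.2, 34.8, 132 and 28.8 CPM at 6h, so that pig 4 stood apart from the others.

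MT1A, a metallothionein that binds zinc and is induced by metals and glucocorticoids, stood at 0.615, 0.182, 0.106 and 0.328 CPM at 0h and 13.5, 5.80, 42.7 and 2.50 CPM at 6h, and it rose by 5.26 ± 0.81 (edgeR adjusted p = 0.034). The rise was seen in 4 of 4 pigs but its size was uneven, with log2 ratios of 4.40, 4.83, 8.34 and 2.84. The table's MT1A model runs from 18660642 to 18673766 on chromosome 6 and so covers far more than the RefSeq gene whose window is printed above, and reads of neighbouring metallothionein copies could count in it. MT1D, another member, was near the floor at 0h (0 to 0.189 CPM, where 3 counts correspond to 0.136 to 0.159 CPM) and at 0.183 to 1.98 CPM at 6h (log2 3.39 ± 1.0, adjusted p = 0.27). SLC30A1, a zinc exporter, gave 1.15 ± 0.39 (adjusted p = 0.375). Of 14 metallothionein and zinc transporter genes tested, 3 were higher at an unadjusted p under 0.05 and the median was 0.77, from -0.18 in pig 3 to 1.84 in pig 4.

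edgeR called no member of the other stress programs, while DESeq2 called 2 NRF2, 1 chaperone, 1 unfolded protein response, 3 hypoxia and 3 glucocorticoid genes higher and none lower. Over all genes tested DESeq2 called 2.05% higher, and 1 of 24 chaperone or 1 of 21 unfolded protein response genes lies near that share. SRXN1, which repairs oxidized peroxiredoxins, stood at 23.2, 19.7, 11.4 and 11.7 CPM at 0h and 87.7, 55.4, 173 and 69.3 CPM at 6h (log2 2.44 ± 0.42, edgeR adjusted p = 0.0593), and of 21 NRF2 antioxidant genes 2 were higher and 1 lower at an unadjusted p under 0.05, which 5.43% of all genes tested passed as higher. Of 24 cytosolic chaperone genes 2 were higher, with BAG3 at 1.45 ± 0.34, and of 21 unfolded protein response genes 2 were higher, with HSPA5 at 1.23 ± 0.33. Of 29 hypoxia and glycolysis genes 5 were higher. Among these PFKFB3, which drives glycolysis, ran from 23.8 to 32.2 CPM at 0h to 76.4 to 140.3 CPM at 6h (log2 1.86 ± 0.35, adjusted p = 0.0746). Of 19 glucocorticoid response genes 5 were higher and 1 lower with a median of 0.61, SGK1, a kinase that controls sodium transport, among them (2.46 ± 0.51, adjusted p = 0.0945).

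GPR3, a receptor that raises cAMP without a ligand, was nearly absent before perfusion. It had 1 count over the 4 libraries at 0h and 210 counts at 6h, a ratio of 210 with a 95% counting interval of 37.3 to 8.33e+03 (counting error only). Its level was 0, 0.0455, 0 and 0 CPM at 0h and 2.92, 1.69, 0.736 and 4.15 CPM at 6h, higher in 4 of 4 pigs (edgeR adjusted p = 0.0222). Of 23 cAMP response genes tested 8 were higher and none lower at an unadjusted p under 0.05, with a median of 0.49. PDE4B, an enzyme that degrades cAMP, gave 1.52 ± 0.34 (adjusted p = 0.122).

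GDNF, a neurotrophic factor, stood at 2.60, 2.55, 1.37 and 1.83 CPM at 0h and 6.57, 17.2, 10.9 and 13.5 CPM at 6h and rose by 2.46 ± 0.40 (edgeR adjusted p = 0.04). Pig 2 rose least, and its 6h level was still above every 0h level. SOWAHB rose by 3.21 ± 0.46 (adjusted p = 0.0222) from a range of 0.423 to 4.78 CPM at 0h to a range of 9.51 to 27.6 CPM at 6h, and ACTRT3 by 3.44 ± 0.55 (adjusted p = 0.04) from a range of 0.455 to 0.846 CPM at 0h to a range of 3.72 to 12.5 CPM at 6h. The gene ENSSSCG00000003079, which the table describes as PVR, a cell adhesion molecule recognised by NK cells, stood at 16.1, 6.09, 12.9 and 8.63 CPM at 0h and 80.1, 64.7, 249 and 46.3 CPM at 6h and rose by 3.14 ± 0.43 (adjusted p = 0.0204).

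**Figure D2:**
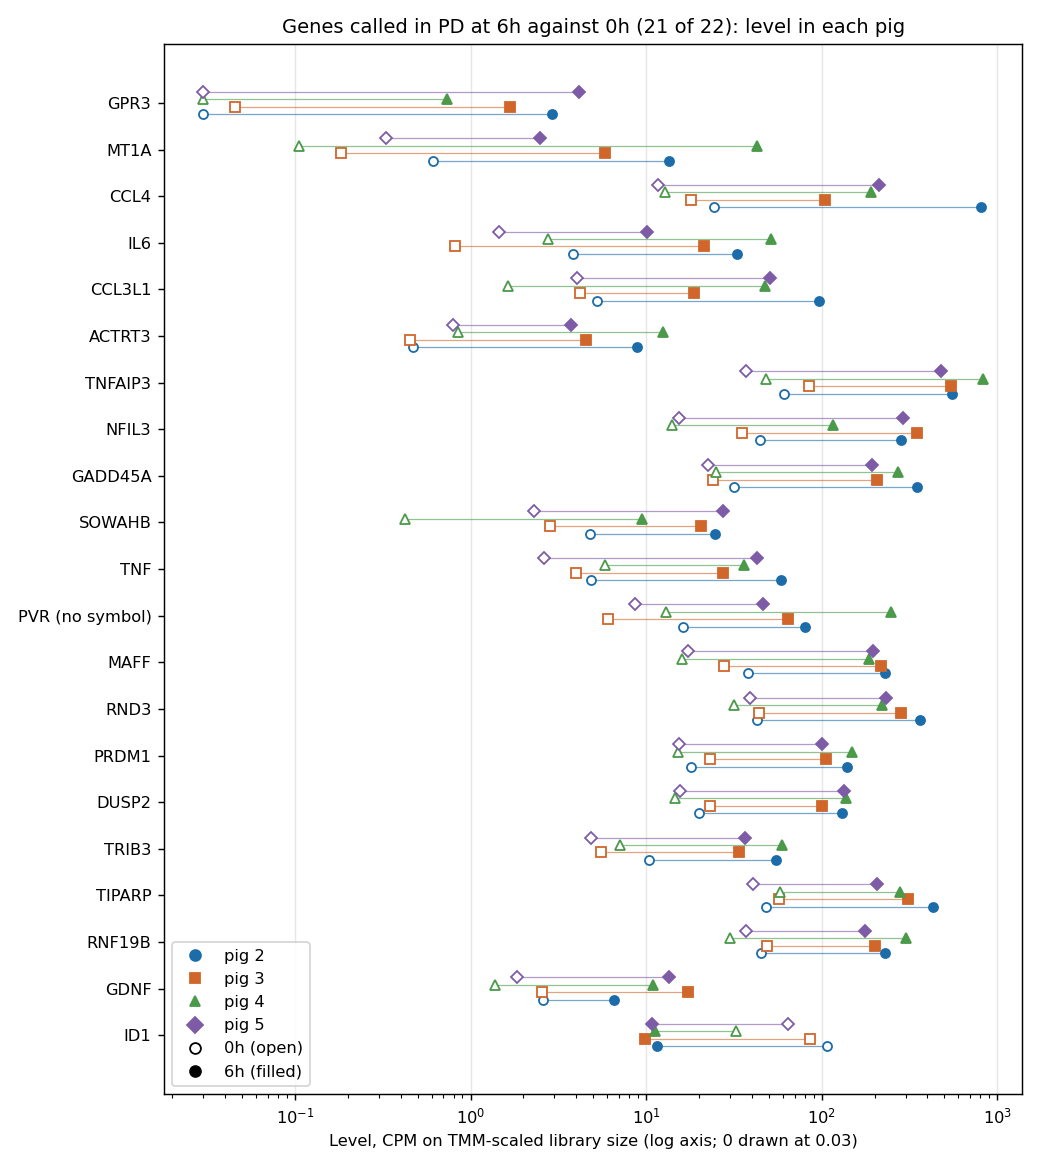
Level of 21 of the 22 called genes in each of the 4 PD pigs at 0h (open symbols) and 6h (filled symbols), in CPM on a log axis, with a line joining the 2 levels of a pig and levels of 0 drawn at the left edge. For each gene that rose the filled symbols lie to the right of the open symbols of the same pig, and for ID1 they lie to the left, at 9.90 to 11.5 CPM.

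edgeR called no member of the lists of EGF receptor, endothelial adhesion and coagulation genes (11, 12 and 22 tested), while DESeq2 called 3, 2 and 7 of them higher and none lower. Over all genes tested DESeq2 called 2.05% higher and 0.701% lower. Of 11 genes of EGF receptors and their ligands 4 were higher and none lower at an unadjusted p under 0.05. The ligand AREG stood at 8.75, 2.68, 2.70 and 0.844 CPM at 0h and 32.1, 14.1, 17.3 and 12.4 CPM at 6h (log2 2.57 ± 0.48, edgeR adjusted p = 0.0703), and EREG gave 2.77 ± 0.68 (adjusted p = 0.169). SELE, the adhesion molecule of activated endothelium, stood at 15.8, 14.7, 1.48 and 2.11 CPM at 0h and 238, 58.9, 623 and 95 CPM at 6h (log2 4.72 ± 1.18, adjusted p = 0.178). Every pig was higher for SELE, with log2 ratios of 3.92, 2.00, 8.69 and 5.48.

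ICAM1, a ligand of leukocyte integrins, ran from 142 to 238 CPM at 0h to 355 to 1081 CPM at 6h without overlap (log2 1.62 ± 0.36, edgeR adjusted p = 0.122), whereas VCAM1 was lower in pig 3 and higher in the other pigs (log2 1.58 ± 0.70, adjusted p = 0.52). Of 12 endothelial adhesion genes 3 were higher and none lower at an unadjusted p under 0.05, with a median of 0.22. EDN1, the vasoconstrictor endothelin, stood at 39.7, 33.3, 8.09 and 18.9 CPM at 0h and 131, 134, 211 and 140.1 CPM at 6h (log2 2.59 ± 0.58, adjusted p = 0.122), and the vasodilator ADM gave 2.23 ± 0.45 (adjusted p = 0.0827). TEK, the angiopoietin receptor, gave 0.60 ± 0.44 (adjusted p = 0.656).

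Of 22 coagulation and fibrinolysis genes tested, 9 were higher and none lower at an unadjusted p under 0.05, with a median of 1.03. The summed level of the list was higher in 4 of 4 pigs, at 663 to 2492 CPM at 0h and 4249 to 8261 CPM at 6h. PLAT, the tissue plasminogen activator, stood at 19.6, 19.6, 9.14 and 16.6 CPM at 0h and 47.3, 59.0, 180.2 and 44.5 CPM at 6h (log2 2.13 ± 0.53, edgeR adjusted p = 0.179). PLAUR, the urokinase receptor, gave 1.41 ± 0.36 (adjusted p = 0.187) and F2RL1, a protease-activated receptor, 1.5 ± 0.32 (adjusted p = 0.101). ADAMTS4, a protease that cuts matrix proteoglycans, stood at 6.77, 0.591, 6.34 and 1.78 CPM at 0h and 48.9, 73.7, 56.1 and 26.0 CPM at 6h and lay just outside the threshold (log2 3.96 ± 0.69, adjusted p = 0.0593).

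Markers of blood leukocytes had lower fitted medians at 6h, but their medians per pig differed. The median log2 ratio of T and NK cell markers was 0.09 in pig 4. Of 14 T and NK cell markers tested none was higher and 3 lower at an unadjusted p under 0.05, the median was -0.41, and the summed level was lower in 4 of 4 pigs, at 337 to 608 CPM at 0h and 279.7 to 405 CPM at 6h. CD3D, a chain of the T cell receptor complex, stood at 21.8, 37.0, 28.7 and 20.6 CPM at 0h and 15.3, 14.9, 20.4 and 11.3 CPM at 6h (log2 -0.81 ± 0.31, edgeR adjusted p = 0.454). MS4A1, the B cell antigen CD20, stood at 12.5, 40.0, 38.6 and 32.6 CPM at 0h and 9.60, 7.89, 11 and 6.45 CPM at 6h, without overlap (log2 -1.68 ± 0.44, adjusted p = 0.192). Of 10 B and plasma cell markers tested, however, 1 was higher (IRF4, 0.80 ± 0.33, adjusted p = 0.491) and 1 lower at an unadjusted p under 0.05. The median of the list was -0.43, with pig 4 at 0.33, and its summed level was higher at 6h in 3 of 4 pigs, at 571 to 1959 CPM at 0h and 676 to 1276 CPM at 6h. In bulk tissue, fewer cells of a type and less RNA per cell cannot be told apart.

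Of 9 monocyte markers tested 3 were lower (median -0.77) and of 10 neutrophil markers 3 were lower (median -0.65) at an unadjusted p under 0.05, with S100A8, S100A9 and S100A12 on both lists. S100A9 stood at 129, 126, 356 and 175 CPM at 0h and 97.7, 95.9, 76.4 and 56.0 CPM at 6h (log2 -1.32 ± 0.60, edgeR adjusted p = 0.53). S100A8 and S100A12 were lower at 6h in 3 pigs but higher in pig 2. There S100A8 went from 113 to 159 CPM and S100A12 from 486 to 803 CPM. The monocyte median per pig was 0.03, 0.25, -1.17 and -0.91 in pigs 2, 3, 4 and 5. The summed monocyte level was lower at 6h in 3 pigs and higher in pig 2, at 1110 to 2033 CPM at 0h and 621 to 1707 CPM at 6h. The summed neutrophil level was also higher at 6h in pig 2 alone, at 816 to 1563 CPM at 0h and 350 to 1167 CPM at 6h. The part of these cell markers in the results on cytokine genes was not tested. Of 13 alveolar macrophage markers none passed an unadjusted p of 0.05, with a median of -0.21 and a summed level of 3789 to 4425 CPM at 0h and 2764 to 4967 CPM at 6h.

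The markers of resident lung cells moved in different directions in different pigs. Of 10 alveolar type 2 markers none passed an unadjusted p of 0.05, and their median per pig ran from -1.35 in pig 4 to 0.36 in pig 3. SFTPC stood at 26222, 16490.0, 68913 and 34082 CPM at 0h and 39104, 15468, 10252 and 14950.0 CPM at 6h, higher in pig 2 alone. Of 15 endothelial markers 1, SOX18, was lower (-1.89 ± 0.66, edgeR adjusted p = 0.397), with a median of 0.25, and none of 10 alveolar type 1 or 13 smooth muscle markers passed. HBB, the beta-globin of red cells, stood at 43.6, 116, 216 and 110.1 CPM at 0h and 44.6, 75.6, 14 and 11.7 CPM at 6h (log2 -2.48 ± 1.12, adjusted p = 0.53).

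None of 34 cytosolic ribosomal protein genes passed an unadjusted p of 0.05. Their median log2 ratio was 0.65 in pig 2 and -0.44, -0.97 and -0.59 in pigs 3, 4 and 5. Of 26 interferon-stimulated genes 3 were higher, and their median was 2.14 in pig 4 against -0.36 to 0.22 in the others. Of 31 ribosome biogenesis genes 4 were higher, with a median of 1.34 in pig 4 against -0.06 to 0.20 in the others. None of 20 complement genes and none of 18 cholesterol genes passed, and of 9 MHC class II genes tested none passed, with their master factor CIITA at -0.57 ± 0.33 (edgeR adjusted p = 0.601).

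**Figure D3:**
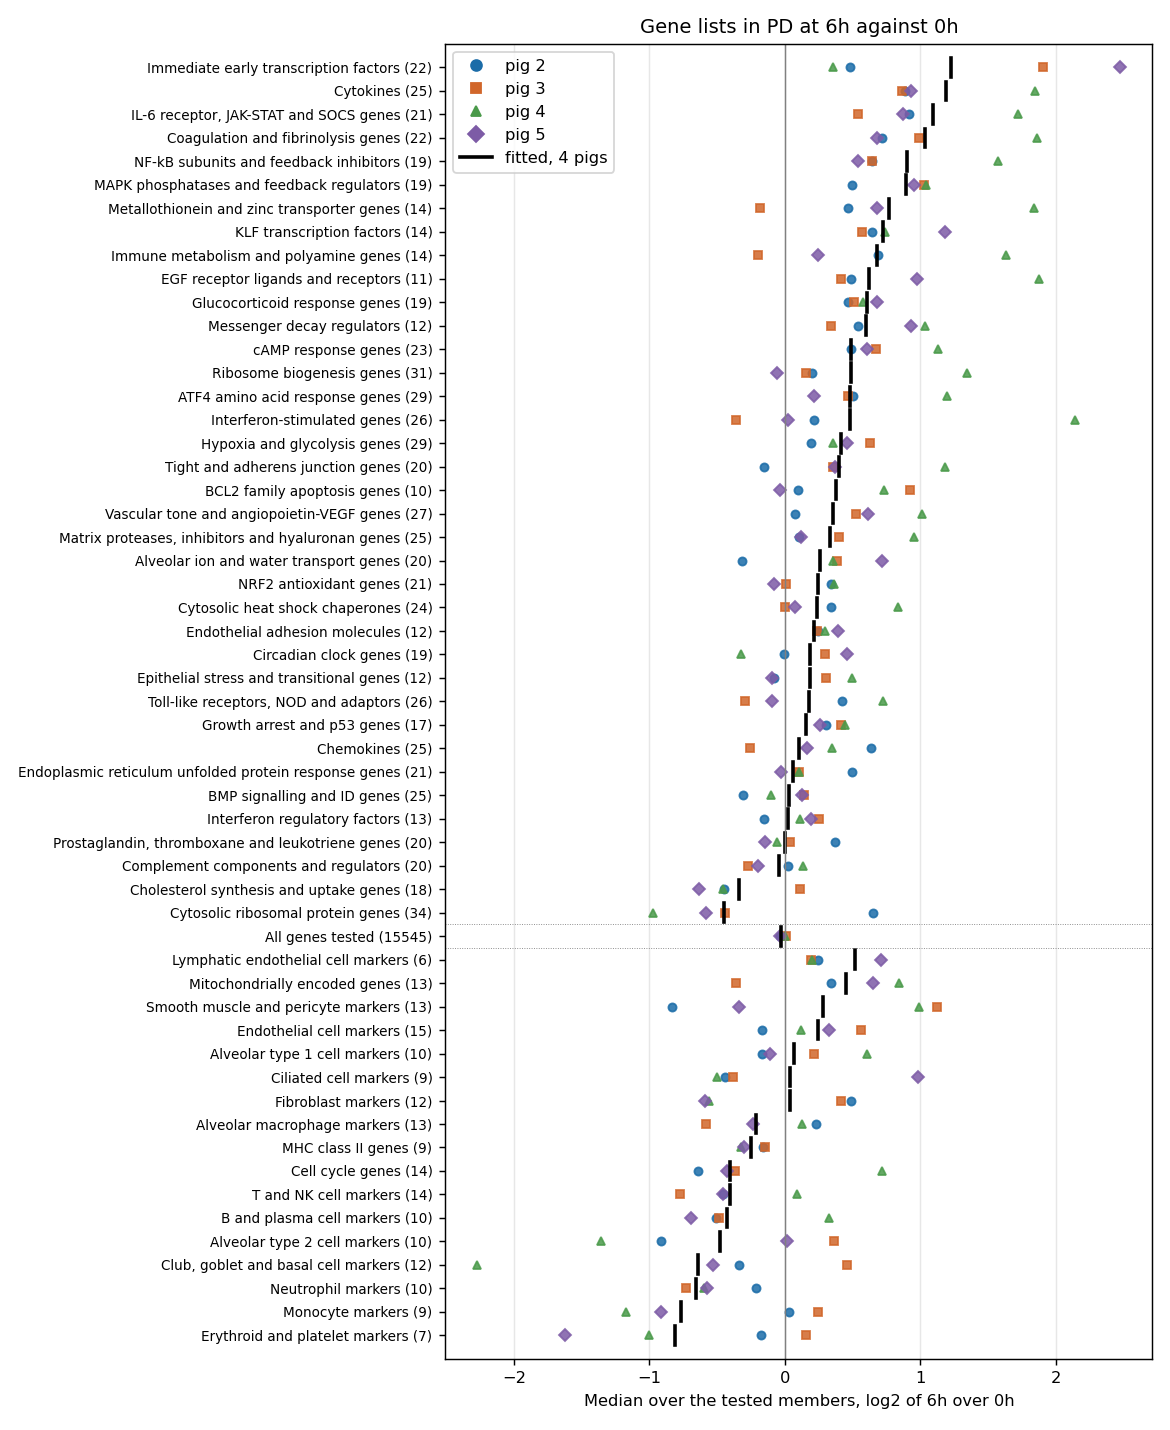
Median log2 ratio of 6h over 0h over the tested members of each gene list (members in brackets) in each of the 4 PD pigs (symbols), with the median of the fitted log2 fold changes as a black bar, response lists above the row of all genes tested and cell markers below. The immediate early list has a fitted median of 1.23 with pig 4 at 0.36 and pig 5 at 2.48, and the marker lists of monocytes and neutrophils have fitted medians of -0.77 and -0.65.

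The pigs differed in how far their whole profile moved. The SD of the log2 ratios over all genes tested was 0.905 in pig 2, 0.866 in pig 3 and 0.975 in pig 5, but 1.70 in pig 4, where 4092 genes were at least 2 times higher and 3992 at least 2 times lower. Across the 15545 genes, Pearson's r between the log2 ratios of a pair of pigs ran from 0.0816 (pigs 2 and 3) to 0.452 (pigs 4 and 5), as a description, since the genes of a library share its depth and composition.

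Part of this spread went with base composition. Over 12695 genes with RefSeq exons (81.7% of those tested), Spearman's rank correlation between the log2 ratio and the GC content of the exons was -0.57 in pig 2, 0.509 in pig 3, -0.418 in pig 4 and -0.205 in pig 5, so pig 3 ran opposite to the others. In the tenth of genes with the lowest GC content (median 38.3%) the median log2 ratio was 0.536, -0.509, 0.952 and 0.263 in pigs 2, 3, 4 and 5. In the tenth with the highest (median 65.5%) it was -0.818, 0.647, -1.33 and -0.358. The correlation of the ratio with exon length was -0.0374, 0.0961, 0.21 and 0.351 in pigs 2, 3, 4 and 5, smaller in size than that with GC content in pigs 2, 3 and 4 and larger in pig 5. RNA was extracted by 1 of 2 routes, frozen slices or RNAlater pieces, and the labels do not say which library had which, so its part was not tested.

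With the trend of each library with GC content and exon length removed, edgeR called 195 of 12686 genes (1.54%), 156 higher (1.23%) and 39 lower (0.307%), against 25 of the same genes with the trend kept. The 21 of the 22 called genes that had exon values were all called again in the same direction. NFKBIA (2.53, edgeR adjusted p = 0.00838), SOCS3 (3.29, adjusted p = 0.00847), MYC (2.73, adjusted p = 0.0101) and ID3 (-1.70, adjusted p = 0.0139) passed the threshold in this fit, as did IL1A (2.62, adjusted p = 0.0287) and IL1B (3.19, adjusted p = 0.036). Of the lists, 6 of 25 cytokine, 6 of 19 immediate early, 5 of 20 JAK-STAT and 4 of 18 NF-kB genes were called higher and none lower. So were 3 of 11 EGF receptor, 2 of 12 endothelial adhesion, 2 of 22 coagulation and 2 of 19 glucocorticoid genes. The NRF2, chaperone, unfolded protein response and hypoxia lists had 1 gene each called higher, of 21, 24, 20 and 29 tested. A single gene says little of a list, as 1.23% of all genes were called higher. Of 25 BMP and ID genes 1 was called higher and 2 lower. Of 16 growth arrest and p53 genes 3 were called higher and 1 lower. CXCL8, VCAM1, IL10 and CD3D did not pass in this fit.

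**Figure D4:**
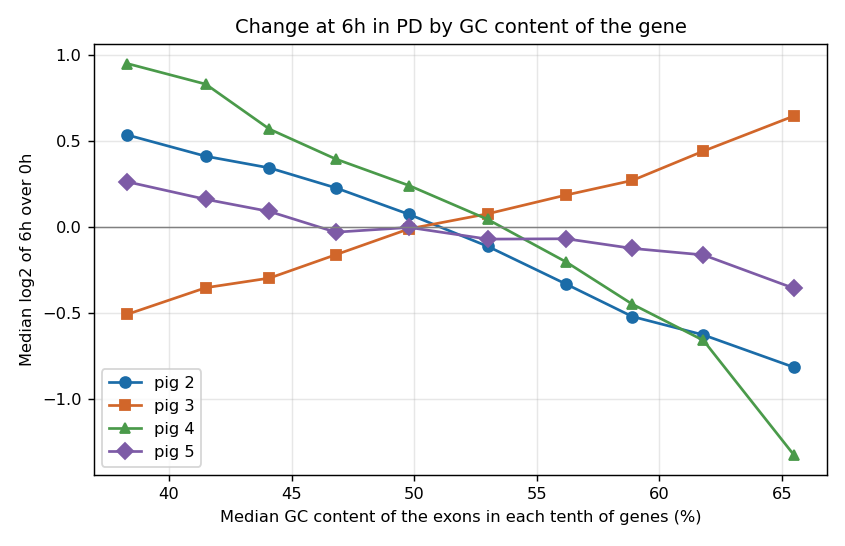
Median log2 ratio of 6h over 0h (vertical axis) in 10 equal groups of genes ordered by the GC content of their exons (horizontal axis, group median in %), for each of the 4 PD pigs. Pigs 2, 4 and 5 fall from left to right and pig 3 rises, from -0.509 to 0.647.

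The change at 6h was then compared with that of the 5 GS pigs, to ask whether dialysis altered it. The test of the difference itself, the interaction of group and time over all 27 libraries, called 0 of 17884 genes, with a smallest adjusted p of 0.783, while 1046 genes (5.85%) had an unadjusted p under 0.05. DESeq2 called 7 genes, CCL4 and IL1B among them, and without PD pig 2 edgeR called 254. GS libraries were deeper at these times (26335584 to 62331425 counts), and edgeR called 1023 of 18594 genes higher (5.5%) and 1034 lower (5.56%) in GS at 6h. PD and GS lungs were separate sets of animals, so a difference between sets of animals and an effect of dialysis cannot be told apart.

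CCL4, which had the smallest interaction p of the 22 called genes, had log2 ratios of 5.05, 2.53, 3.91 and 4.17 in the PD pigs and of -1.74, 0.44, 0.76, 0.78 and 1.25, in rising order, in the GS pigs. The groups did not overlap, and the difference of PD minus GS was 3.53 ± 0.79 (edgeR unadjusted p = 0.000236, adjusted p = 0.783). CCL3L1 differed by 3.04 ± 0.80 (unadjusted p = 0.00109), DUSP2 by 2.18 ± 0.51 (unadjusted p = 0.000346), GDNF by 1.78 ± 0.49 (unadjusted p = 0.00169) and RND3 by 1.79 ± 0.55 (unadjusted p = 0.00379). These were higher in PD, and none passed after adjustment. With the opposite sign, ACTRT3 gave 3.44 in PD and 4.83 in GS (difference -1.41 ± 0.81, unadjusted p = 0.0956), and ID1 gave -2.59 in PD and -1.57 in GS (difference -1.03 ± 0.46, unadjusted p = 0.0361).

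IL1B had log2 ratios of 3.78, 0.51, 4.87 and 3.27 in the PD pigs and of -1.91, -1.48, -1.24, -0.38 and -0.20 in the GS pigs, so that PD pigs were higher and GS pigs lower at 6h. The difference was 4.33 ± 1.05 (edgeR unadjusted p = 0.000504, adjusted p = 0.783). IL1A differed by 2.74 ± 0.88 (unadjusted p = 0.00555) and TNF by 1.84 ± 0.64 (unadjusted p = 0.00955). For IL6 the GS ratios were 0.00, 2.27, 2.56, 2.71 and 3.57, and the difference was 1.53 ± 0.66 (unadjusted p = 0.031).

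Other genes had closer values in both groups. GADD45A gave 3.28 in PD and 2.77 in GS, with a difference of 0.49 ± 0.31. TRIB3 gave 2.73 and 3.02 (difference -0.29 ± 0.39), and MT1A 5.26 and 4.99 (difference 0.29 ± 1.20). ID3, which DESeq2 called lower in PD and the main edgeR fit did not (edgeR adjusted p = 0.053), gave -1.92 in PD and -2.10 in GS. A p that misses the threshold does not show that the groups responded alike.

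**Figure D5:**
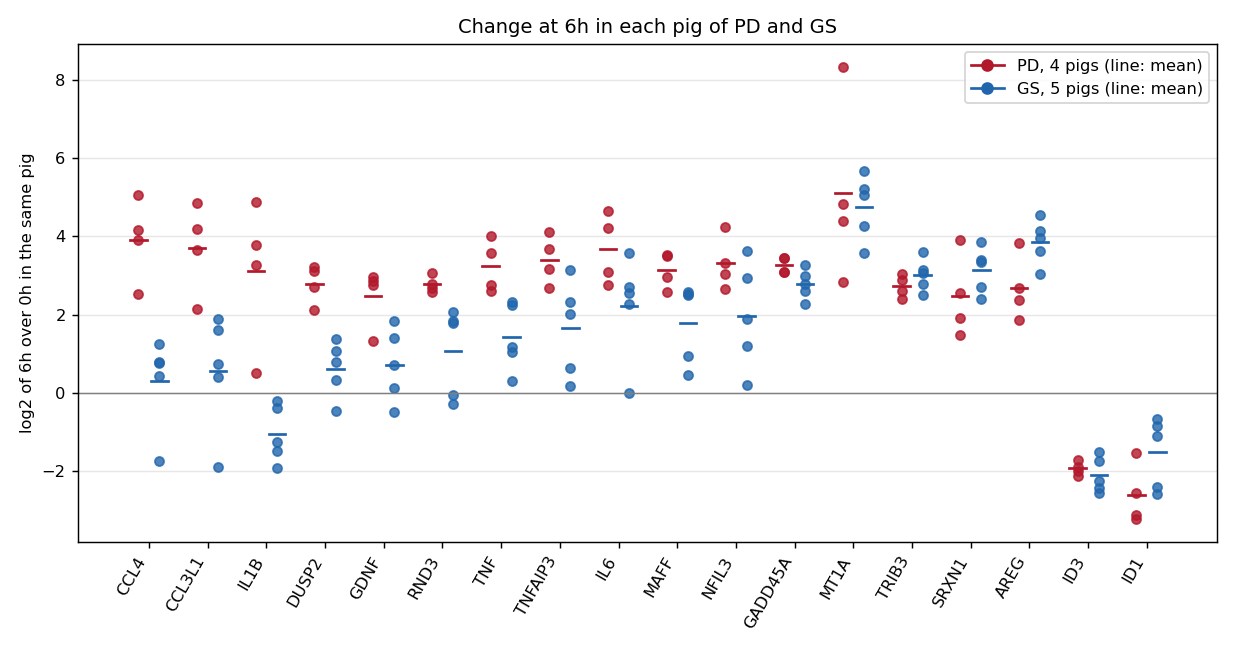
Log2 ratio of 6h over 0h in the same pig (vertical axis) for 18 genes, in the 4 PD pigs (red) and the 5 GS pigs (blue), with lines at the means. The PD points lie above the GS points for CCL4, CCL3L1, IL1B, DUSP2, RND3, TNF and, by a small margin, MAFF. They are mixed with the GS points for MT1A, TRIB3 and ID3, among others.

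The 12h biopsies of the same lungs share the 0h libraries with the comparison above, so the values are given side by side only. At 12h edgeR called 501 genes higher (3.22%) and 429 lower (2.76%) against 0h. Of the cytokines, IL6 gave 3.77 at 6h and 4.51 at 12h, TNF 3.20 and 2.71, and IL1A 2.72 and 1.0. CCL4 gave 3.94 and 3.37, MT1A 5.26 and 6.58, TRIB3 2.73 and 3.73, and ID1 -2.59 and -1.25. In the direct test of 12h against 6h edgeR called 0 of 15545 genes, with 1562 (10%) at an unadjusted p under 0.05, IL1A (-1.71, unadjusted p = 0.00756) and ID1 (1.33, unadjusted p = 0.00302) among them.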

How the data were processed

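Total RNA of lung biopsies was sequenced from libraries of a stranded mRNA kit. Per the labels and the methods of the study, the authors trimmed reads with cutadapt 1.15, aligned them to Sscrofa11.1 with TopHat2 2.0.14 and counted reads per gene with featureCounts (Subread 1.6.0). The deposited values are raw counts of 31908 genes in 27 libraries, and the strand setting of the counting is not given in the sources used here, so overlapping genes are uncertain. The members and the gene lists were chosen with earlier results of these data known. Symbols came from the table for 16719 genes, from an NCBI gene number for 985, from the Ensembl name table for 370 and from a RefSeq gene at the same place for 215, and 13619 kept their identifier.

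From these counts, edgeR 4.0.16 (R 4.3.3; TMM, expression filter, robust quasi-likelihood F test, two-sided, Benjamini-Hochberg) was fitted to the 12 PD libraries with the pig as a block, which the same animal at 0h, 6h and 12h justifies. The deviations of a pig's 0h and 6h libraries from their group means correlated with r = 0.158, -0.018, 0.004 and 0.333 in pigs 2, 3, 4 and 5. Replicates are separate pigs. Log2 ratios per pig used TMM-scaled library sizes and 0.5 added to each count. In simulated data for this comparison over 15545 genes, edgeR recovered 1 of 67, 23 of 67 and 55 of 66 genes changed by 1, 2 and 3 on the log2 scale with 4 false calls, and DESeq2 1.42.0 recovered 6, 44 and 65 with 42 false calls. The simulated counts held no pig effect and no trend with GC content or exon length. These numbers therefore need not hold for the real libraries. No pair of the 8 libraries was alike within sampling noise (smallest chi-square per degree of freedom 39.8). Intervals and floors (3 counts) cover counting error only.

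Named genes were the called genes, up to 3 members of smallest p of each list, genes that the study names for its RNA-seq, and defining cell markers. Exon length and GC content were taken from RefSeq for the genes that could be matched, and their trend was removed in each library by smooth offsets. That correction, DESeq2 without each pig and the fit without the 12h library of pig 2 were chosen after seeing the data. The values of 1 called gene are not reported here.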

Additional observations from a re-analysis of the deposited data

Results flagged for a closer look

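Among 98 groups of 4 pigs examined, 8 held 1 pig whose gap to the nearest other pig was large against the whole range (Dixon's 95% criterion), a size that chance gives in about 1 group in 20. Most of these concern the log2 ratio of 6h over 0h in pig 4. PLAT, the tissue plasminogen activator, stood at 4.30 against 1.27 to 1.59 in the others, and DDX21, a helicase of ribosome biogenesis, at 4.34 against 0.71 to 1.22. TXNRD1, an antioxidant reductase, stood at 3.80 against 0.90 to 1.25, SLC7A1, an amino acid carrier, at 3.22 against 0.92 to 1.24, and CD40, a co-stimulatory receptor, at 1.65 against -0.16 to 0.05. The SD of the log2 ratios over all genes tested was also high in pig 4, at 1.7 against 0.866 to 0.975. Pig 2 stood low for GDNF, at 1.33 against 2.75 to 2.97, and for HBEGF, a ligand of the EGF receptor, at 0.77 against 1.95 to 2.16.

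The change of IL1B differed between PD and GS by 4.33 on the log2 scale. All 4 PD pigs were higher at 6h and all 5 GS pigs were lower, at -1.91 to -0.20 (edgeR interaction, unadjusted p = 0.000504, adjusted p = 0.783).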

How the results depend on the processing

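The 22 genes called at 6h in PD kept their direction under all alternatives in which they were tested. Each had moved the same way in all 4 pigs, so this was nearly fixed in advance. The number of calls did not hold. Without the pairing of libraries by pig edgeR called 100 genes, 21 of the 22 among them, and with the 0h and 6h libraries alone 139. All 27 libraries in 1 fit gave 479, DESeq2 428, DESeq2's size factors in edgeR 24, no filter on low counts 103, the fit without the 12h library of pig 2 252 and the fit with the trend with GC content and exon length removed 195. Leaving out 1 pig gave 0 to 98 genes in edgeR (0 without pigs 3, 4 or 5 and 98 without pig 2) and 96 to 1418 in DESeq2 (1418, 171, 223 and 96 without pigs 2, 3, 4 and 5), which called the 22 each time. The share of calls that were higher at 6h was 95.5% and fell as low as 62.6% in DESeq2 without pig 2. The causes of these shifts were not tested.

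The difference between PD and GS, with 0 genes called, gave 7 in DESeq2 and 0 to 254 in edgeR when 1 pig was left out, with 254 without PD pig 2. CD40, at 0.38, changed direction without pig 4, to -0.07 in edgeR, where leaving out 1 pig gave -0.07 to 0.55, and to -0.05 in DESeq2. With 4 pigs and a common biological coefficient of variation of 0.489, changes of less than 3 on the log2 scale were often missed in the simulated data, so a gene that was not called may still have changed.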

Other observations

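With the trend with GC content and exon length removed, 39 of 12686 genes (0.307%) were called lower at 6h in PD, and some of them are known from lymphocytes or monocytes. Apart from MS4A1, those named here were chosen after their values were seen and stand for no list. Of the marker lists in the same fit, none of 12 T and NK cell markers and none of 9 monocyte markers was called, and of 10 B and plasma cell markers 1, MS4A1, was called lower. SLAMF6, a receptor of T, B and NK cells, stood at 12, 19.1, 28.1 and 12.6 CPM at 0h and 4.77, 4.84, 11.2 and 3.45 CPM at 6h (log2 -1.83 with the trend removed, edgeR adjusted p = 0.0101; -1.60 ± 0.39 and 0.165 with it kept). GIMAP7, a GTPase of lymphocytes, stood at 36.9, 48.8, 88.2 and 42.1 CPM at 0h and 19.5, 10.4, 25.5 and 8.60 CPM at 6h (log2 -1.91, adjusted p = 0.0104; -1.81 ± 0.35 and 0.0815 with the trend kept). Neither gene overlapped between the times, and every pig was lower at 6h.

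CX3CR1, the fractalkine receptor of patrolling monocytes and cytotoxic lymphocytes, stood at 3.93, 4.36, 4.12 and 6.61 CPM at 0h and 1.24, 0.365, 1.13 and 0.768 CPM at 6h (log2 -2.59 with the trend removed, edgeR adjusted p = 0.044; -2.40 ± 0.68 and 0.253 with it kept). MS4A1, the B cell antigen CD20, gave -1.94 (adjusted p = 0.0292), and SPIB and FCMR, also of B cells, gave -1.91 (adjusted p = 0.0338) and -1.71 (adjusted p = 0.0255). With the trend kept, MS4A1, SPIB and FCMR gave -1.68, -2.07 and -1.65, with adjusted p = 0.192, 0.0827 and 0.115. In GS the fitted changes at 6h were -2.16 for SLAMF6, -1.10 for GIMAP7, -2.85 for CX3CR1, -1.29 for MS4A1, -1.53 for SPIB and -1.39 for FCMR, lower as in PD.

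The long non-coding RNA ENSSSCG00000041596, on the unplaced sequence that the table names AEMK02000695.1, was chosen after its values were seen. It stood at 9864, 3233, 22092 and 10684 CPM at 0h and 2474, 1775, 1636 and 2213 CPM at 6h, lower in every PD pig (log2 -2.33 ± 0.87, edgeR adjusted p = 0.435). Its fitted change in GS was 0.44.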
